A study of Mus musculus with 4 samples.

Results

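A set of 9 genes of hepatic stellate cells and of the extracellular matrix were followed in mouse liver by their acetylation of histone H3 at lysine 27 (H3K27ac), a mark of active promoters and enhancers. They were Col4a1, Nid1, Sparc, Bgn, Col6a2, Mylk, Tpm2, Cygb and Colec11, 9 of the 7090 protein-coding genes with a transcription start listed in the deposited tables. The members were taken because earlier work on these tables had found them listed in 1 group and not in the other, at the promoter or at a distal region. Their promoter state and their distal regions are therefore given as a description, with no test.

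The samples were livers of wild-type C57/BL6J mice, profiled by CUT&Tag, in which an antibody directs a transposase to cut and tag the DNA around the mark. The sham group had 2 libraries from sham-operated mice, for which the labels give no hours after surgery. The PHx group had 2 libraries taken 12 h after removal of 70% of the liver (partial hepatectomy, PHx). The labels do not say whether the 2 libraries of a group came from separate animals, and time after surgery cannot be told apart from hepatectomy. Each group has 1 list of regions on GRCm39, joined by the authors from the peaks of both libraries, without counts or signal. The depth is therefore unknown, replicate error cannot be given for any value, and no test was run.

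Hepatic stellate cells lie between hepatocytes and sinusoidal endothelium, store vitamin A in the resting organ and, on activation, contract and deposit matrix. Basement membrane is a sheet of type IV collagen and laminin networks bridged by nidogens, and the sinusoid normally holds little of it. Collagens, SPARC and nidogen are also made by endothelial cells, and contractile genes also by vascular smooth muscle. In whole tissue a smaller number of cells of a type and less mark per cell cannot be told apart.

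The whole lists set the scale for the members. The PHx list held 10170 regions with a median width of 14551 bp and the sham list 11602 regions with a median width of 8153 bp, so wider regions after PHx were general. Library peaks are numbered in genomic order, and numbers missing between neighbouring regions show peaks of 1 library that were not joined into any listed region, called unjoined peaks here. Up to the highest number printed, 71.4% to 73.3% of the peak numbers of the sham libraries and 78.8% to 87.6% of those of the PHx libraries were in listed regions. An unjoined peak can be placed only between the 2 regions around it, and that stretch can be long.

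A gene was called marked when a region came within 1 kb of its most upstream listed start. By this measure 7 of 9 members were marked in PHx only, against 15.4% of all protein-coding genes, and 0 of 9 in sham only, against 9.79%. None was marked in both groups, where 66% of all genes stood, and Nid1 and Col6a2 were marked in neither, as were 8.79%. Membership was chosen on this contrast, so nothing is read from the shares. At these starts the sham list had no region, and its nearest region lay between 7439 bp (Colec11) and 230504 bp (Bgn) away.

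**Figure D1:**
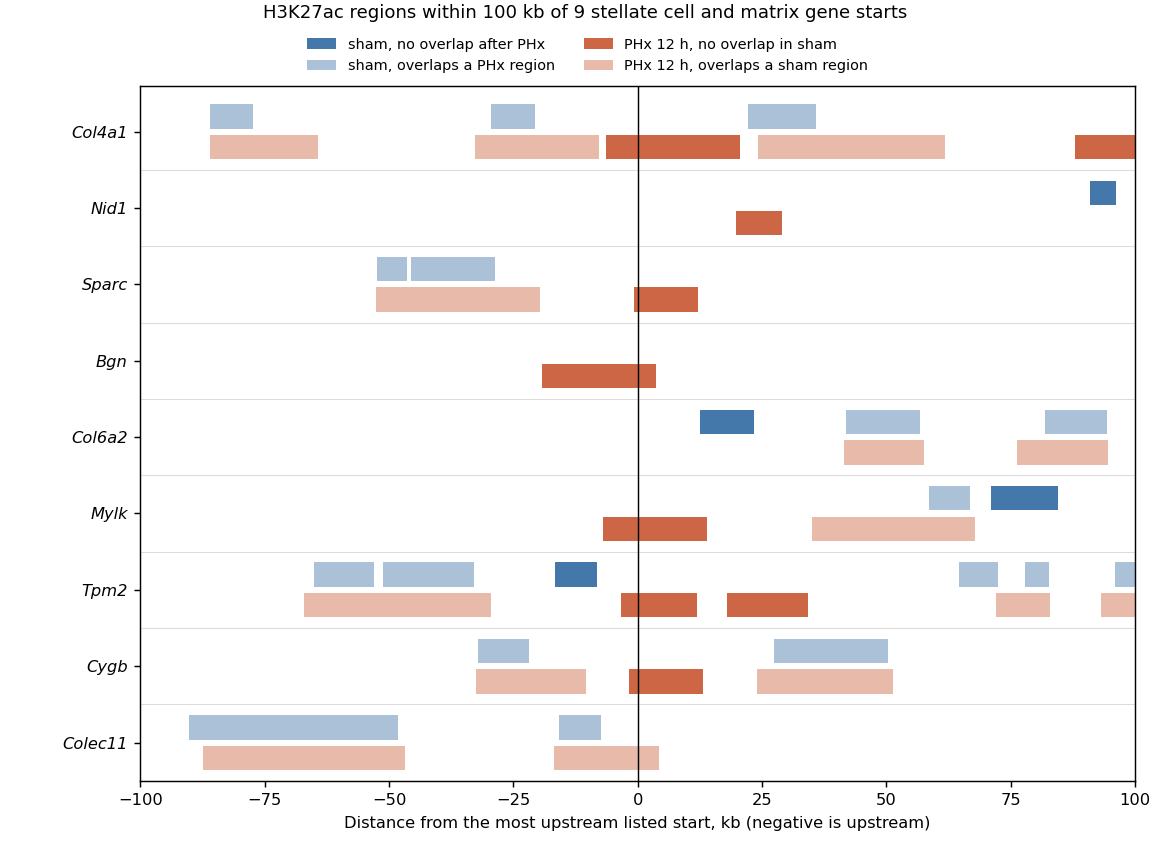
Regions of the sham (upper bar) and PHx 12 h (lower bar) lists within 100 kb of the most upstream listed start of each of the 9 genes, with distance in kb along the direction of transcription; full colour marks a region without overlap in the other list. A PHx region crosses the start line in 7 genes and a sham region in none, while Col6a2 and Nid1 have a region inside the gene in 1 group only.

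The RefSeq promoter sequences of 6 of the members are shown. At the start, 5 of them carried a region in PHx only and the sixth, Nid1, carried none in either list. The windows of Mylk, also in PHx only, and Col6a2, also in neither, are not printed. Each printed sequence runs 5′ to 3′ on the gene's strand from 250 bases before to 50 bases after a RefSeq start. These starts are on GRCm38.p6, another build than that of the regions. Whether the RefSeq start of a gene is the one in the authors' tables was not determined. Capitals mark matches, on either strand, to 7 motifs: the GC box GGGCGG, the TATA box TATAAA, the AP-1 site TGANTCA, the TEAD site GGAATG, the ETS site CCGGAA, the GATA site AGATAA and the CArG box of serum response factor.
Col4a1, chr8:11312777-11313076, minus strand: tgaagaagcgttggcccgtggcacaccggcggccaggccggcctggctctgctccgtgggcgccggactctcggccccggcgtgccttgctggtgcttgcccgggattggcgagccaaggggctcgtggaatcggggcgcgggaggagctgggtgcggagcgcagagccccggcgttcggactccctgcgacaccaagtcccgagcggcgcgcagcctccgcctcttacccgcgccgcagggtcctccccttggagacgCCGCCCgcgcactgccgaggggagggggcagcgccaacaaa
Nid1, chr13:13437352-13437651, plus strand: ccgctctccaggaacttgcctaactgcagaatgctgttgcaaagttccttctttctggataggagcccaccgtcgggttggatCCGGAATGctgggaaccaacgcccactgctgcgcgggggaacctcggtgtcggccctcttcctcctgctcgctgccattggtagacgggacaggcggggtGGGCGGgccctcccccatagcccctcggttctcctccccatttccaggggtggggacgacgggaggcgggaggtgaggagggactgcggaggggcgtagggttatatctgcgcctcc
Sparc, chr11:55420031-55420330, minus strand: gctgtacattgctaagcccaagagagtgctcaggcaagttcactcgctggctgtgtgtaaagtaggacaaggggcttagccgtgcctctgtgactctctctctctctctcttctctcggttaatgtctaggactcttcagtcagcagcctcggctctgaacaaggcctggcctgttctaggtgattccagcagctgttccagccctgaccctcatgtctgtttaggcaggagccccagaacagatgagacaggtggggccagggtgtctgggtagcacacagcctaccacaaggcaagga
Bgn, chrX:73483351-73483650, plus strand: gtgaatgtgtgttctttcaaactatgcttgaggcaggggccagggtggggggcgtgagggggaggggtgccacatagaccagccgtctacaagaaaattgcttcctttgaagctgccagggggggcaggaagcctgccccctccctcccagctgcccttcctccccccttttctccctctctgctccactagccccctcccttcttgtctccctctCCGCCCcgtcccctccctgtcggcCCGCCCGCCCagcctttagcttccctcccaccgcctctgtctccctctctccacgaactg
Tpm2, chr4:43523505-43523804, minus strand: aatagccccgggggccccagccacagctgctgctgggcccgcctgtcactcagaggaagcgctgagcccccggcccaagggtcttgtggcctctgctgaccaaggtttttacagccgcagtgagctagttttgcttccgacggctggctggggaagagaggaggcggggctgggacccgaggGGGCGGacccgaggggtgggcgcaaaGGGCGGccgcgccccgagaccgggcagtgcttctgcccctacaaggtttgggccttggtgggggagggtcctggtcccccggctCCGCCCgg
Colec11, chr12:28623281-28623580, minus strand: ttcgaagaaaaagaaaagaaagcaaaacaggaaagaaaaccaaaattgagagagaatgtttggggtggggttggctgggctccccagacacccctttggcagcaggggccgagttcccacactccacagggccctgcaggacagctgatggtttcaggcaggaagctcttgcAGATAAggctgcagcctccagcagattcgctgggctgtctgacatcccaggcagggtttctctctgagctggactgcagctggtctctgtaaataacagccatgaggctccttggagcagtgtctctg

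These promoters differed widely in composition. The Col4a1 window had 74% G and C and 37 CpG dinucleotides, more CpGs than 94.4% of the 32851 RefSeq promoter windows, whose median was 7. The Colec11 window had 54% G and C and 3 CpGs, and the Sparc window 55.3% and 4, both below the median CpG count. Tpm2 and Nid1 each had 20 CpGs and Bgn had 9. A GC box was found in Bgn (at -34, -10 and -6, the last pair overlapping), Tpm2 (-68, -42 and 42), Col4a1 (9) and Nid1 (-67), with positions counted from the start as 0, and 35.7% of all windows hold one. Nid1 also held an ETS match at -167 that overlapped a TEAD match at -165. Those motifs are found in 14.9% and 14.7% of windows. Colec11 had a GATA match at -78, a motif in 11.2% of windows, and the Sparc window matched none of the 7. No match to the AP-1 site, the TATA box or the CArG box, found in 7.81%, 13.6% and 1.63% of windows, lay in these 6. Among the members not printed, the Mylk window held an AP-1 match at -64, a TEAD match at -158 and an ETS match at -137. Both Col6a2 windows held GC boxes, and that at chr10:76623355-76623654 also held a TEAD match at -115. Cygb was matched to no RefSeq promoter.

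Col4a1 encodes the alpha 1 chain of type IV collagen, the main network of basement membranes. After PHx its start (11362826 on chromosome 8, minus strand) lay in a region of 26984 bp (11342180 to 11369163) that reached 6337 bp upstream and 20646 bp into the gene. Each PHx library gave 1 peak to it. Sham had no region between 11340662 and 11383552, a stretch of 42889 bp in which sham library 1 had 1 unjoined peak and library 2 had 2. The regions next to it were in both lists and wider after PHx. The one inside the gene, assigned to the predicted gene Gm32709, measured 13614 bp in the sham list and 37563 bp in the PHx list. The upstream one, assigned to Gm46030, measured 8826 and 24884 bp. After PHx only 3556 bp and 1419 bp separated these 3 regions, where sham had the open stretch.

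Type IV collagen is a trimer of alpha 1 and alpha 2 chains, whose genes lie head to head. No region was assigned to Col4a2, so it has no listed start here, but a region over exon 5 of Col4a2 was in both lists, with 8566 bp in the sham list and 21731 bp in the PHx list. A further region of 14332 bp, over an exon of Gm15418 and 87889 bp or more downstream of the Col4a1 start, was in the PHx list only. Within 100 kb either side of the start, listed regions covered 31006 bp in the sham list and 123274 bp in the PHx list. Only 8 of 7090 protein-coding genes, Col4a1 included, had so large a difference, while the median difference of all genes was 16429 bp. This length includes PHx-only regions of the kind on which the members were chosen, so nothing is read from the rank. Of the gene itself, 11.9% was covered in sham and 63.4% after PHx.

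Nid1 encodes nidogen 1, which links laminin to type IV collagen. Its start (13612187 on chromosome 13, plus strand) had no region in either list. The PHx list held 1 region over exon 2 of the gene, 9165 bp wide (13632024 to 13641188) and 19837 bp downstream of the start. Its width was in the lower part of the PHx list, wider than 18.6% of regions. No sham region lay within 91004 bp of the start, where a sham region of 5229 bp nearest to Lyst began that was not in the PHx list. The stretches around the Nid1 start held few unjoined peaks. Neither PHx library had an unjoined peak in the stretch of 1036226 bp that holds the start. Sham library 1 had none in its stretch of 1116323 bp, which holds the start and the PHx exon 2 region, and sham library 2 had 2.

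Sparc encodes a collagen-binding matricellular protein. The PHx list had a region of 12785 bp (chromosome 11, 55298826 to 55311610) that reached only 704 bp upstream of the start at 55310906 and 12080 bp into the gene. It was the narrowest of the 7 promoter regions and narrower than the median PHx region. Sham had no region for 226922 bp around this start, and sham library 1 had no unjoined peak there, while library 2 had 2. Upstream, the PHx list had 1 region of 32884 bp over the starts of Atox1, a copper chaperone, and G3bp1, where sham had 2 neighbouring regions of 16996 and 6058 bp. At Sparc itself 46.6% of the gene was covered after PHx and 0 in sham.

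Bgn encodes biglycan, a small proteoglycan that binds collagen. Its PHx region of 22983 bp (chromosome X, 72507887 to 72530869) lay mostly upstream, with 19320 bp before the start at 72527207 and 3662 bp after it. It was the only listed region within 100 kb in either group. Regions on the X chromosome were few, 30 in sham and 50 after PHx, and the sham stretch around Bgn ran for 13306132 bp with 2 unjoined peaks of library 1 and 1 of library 2. Of the 40 protein-coding genes on X with a listed start, 20 (50%) were marked in PHx only and 3 (7.5%) in sham only. Bgn thus had the state most frequent on its chromosome.

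Col6a2 encodes a chain of type VI collagen, which forms beaded microfibrils around cells. It was the single member with a smaller part of the gene covered after PHx than in sham. Its start (76459238 on chromosome 10, minus strand) was marked in neither group, and sham had a region of 10847 bp over exon 11 (76435939 to 76446785), 12453 bp downstream of the start, that was not in the PHx list. This region covered 39.2% of the gene in sham, against 0 after PHx. PHx library 2 had no unjoined peak in the stretch of 419984 bp around it and library 1 had 1. Both neighbouring regions downstream were in both lists. That of Ftcd, a folate enzyme of hepatocytes, had 14850 bp in the sham list and 16053 bp in the PHx list, and that of Lss, of cholesterol synthesis, 12355 and 18295 bp. Covered length within 100 kb was 38052 bp in the sham list and 34348 bp in the PHx list, and Col6a2 was the single member with less after PHx.

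Mylk encodes the kinase that phosphorylates myosin light chain and so starts smooth muscle contraction. It has 4 listed starts, at 34565569, 34605320, 34627335 and 34750700 on chromosome 16, plus strand. The last is 185131 bp downstream of the first, and short products of this gene, among them telokin, are known to start inside it. The starts differed in state. The first was marked in PHx only, by a region of 20857 bp (34558597 to 34579453). The nearest sham region was 58656 bp away, and sham library 2 had no unjoined peak in the stretch of 447708 bp while library 1 had 4. The second was covered in PHx only too, by a region of 32864 bp (34600613 to 34633476), which also covered the third. There sham had a region of 8096 bp (34624225 to 34632320), so the third start was marked in both. The last was also marked in both, with 14857 bp in sham (34736165 to 34751021) and 82155 bp after PHx (34736960 to 34819114). That PHx region was wider than 99.1% of its list and spanned 5 sham regions.

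Counted by any of its listed starts, Mylk was therefore marked in both groups. Starts in different states were frequent: 43.2% of the 1089 protein-coding genes with several listed starts had them. Inside the gene a sham region of 13327 bp in intron 2 (34636697 to 34650023) was not in the PHx list. PHx library 2 had no unjoined peak in that stretch of 42823 bp and library 1 had 1. A PHx region of 10628 bp over exon 3 (34676300 to 34686927) was not in the sham list. A narrow region over exon 10 was nearly the same, with 3959 bp in the sham list and 4021 bp in the PHx list. In all 28% of the gene was covered in sham and 55.8% after PHx.

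**Figure D2:**
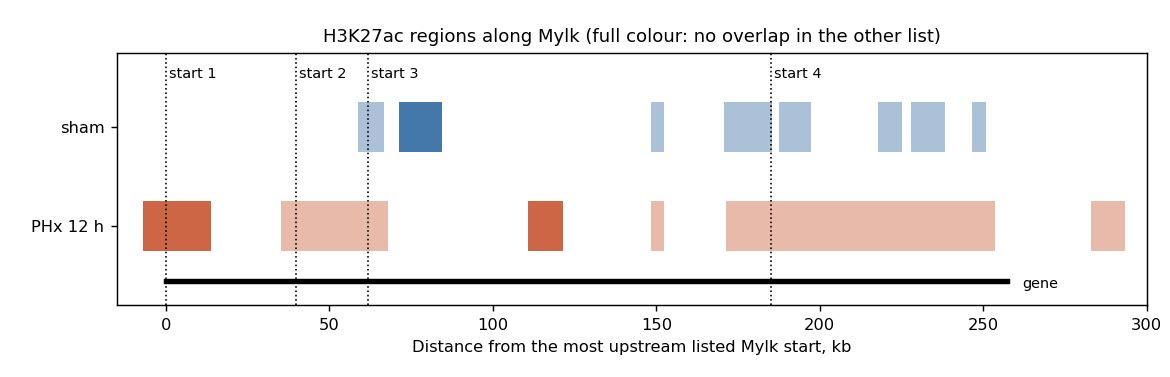
Listed regions along Mylk in the sham and PHx 12 h lists, by distance in kb from its most upstream start; dotted lines are the 4 listed starts, the black bar is the gene, and full colour marks a region without overlap in the other list. The first and second start lie in PHx regions only, the third and the last in regions of both lists.

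Tpm2 encodes beta-tropomyosin, which lies along the actin filaments of contractile cells. Its listed starts, 43523583 and 43523554 on chromosome 4 (minus strand), shared 1 PHx region of 15266 bp (43511651 to 43526916) that covered the whole gene, 100% against 0 in sham. In sham the nearest region was upstream and not in the PHx list. It measured 8444 bp (43531850 to 43540293), began 8267 bp from the start and was annotated to a 3′ UTR. The next protein-coding gene on that side in RefSeq order is Tln1, talin 1. At this region PHx library 2 had no unjoined peak and library 1 had 1, in a stretch of 26069 bp. In the sham stretch of 72803 bp that holds the Tpm2 start, library 1 had 1 unjoined peak and library 2 had 4. The neighbouring promoter of Ccdc107 lay in the same sham stretch and also had a region in PHx only, of 16396 bp.

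Cygb encodes cytoglobin, an oxygen-binding globin used as a marker of hepatic stellate cells. The PHx region of 14907 bp (chromosome 11, 116531936 to 116546842) began 1703 bp upstream of the start at 116545139 and covered the whole gene, 100% against 0 in sham. The sham stretch around it was short, 49264 bp, with 1 unjoined peak of library 1 and none of library 2. Sham library 2 thus had no called peak at Cygb, and both PHx libraries had 1. Flanking regions were in both lists, that of Rhbdf2 with 22988 bp in the sham list and 27543 bp in the PHx list, and that at Snhg16 and Snord1a with 10263 and 22176 bp.

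Colec11 encodes collectin 11, a soluble lectin of innate immunity. Of the 7 PHx regions at member starts, its region of 21178 bp (chromosome 12, 28668960 to 28690137) was the only one that overlapped a sham region. The sham region of 8338 bp (28680768 to 28689105), at the predicted gene LOC118567952, made up 39.4% of its length and ended 7439 bp upstream of the Colec11 start at 28673329. The PHx region went on from there for 4369 bp into Colec11. Library 1 gave 1 peak to it and library 2 gave 2. Of the gene, 15% was covered after PHx and 0 in sham, and the wide neighbouring region of Adi1 had 42070 bp in the sham list and 40600 bp in the PHx list.

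Set side by side, the 7 promoter regions after PHx ranged from 12785 bp (Sparc) to 26984 bp (Col4a1), with a median of 20857 bp. The median over all 5773 protein-coding genes marked after PHx was 16122 bp (quartiles 10255 and 27749 bp). Over the 1091 genes marked in PHx only, as the 7 were, it was 13403 bp (quartiles 9714 and 21514 bp), and Bgn and Col4a1 lay above that upper quartile. Sparc, Tpm2 and Cygb, with 12785, 15266 and 14907 bp, lay near the median of the PHx list, and the other 4 above it. The regions of Sparc, Cygb, Tpm2 and Col4a1 lay mainly in the gene, with 94.5%, 88.6%, 78.2% and 76.5% of their length after the start, and that of Mylk had 66.6%. Those of Colec11 and Bgn lay mainly upstream, with 20.6% and 15.9% after the start. The median of the 7 was 76.5% and that of all genes marked after PHx 64%. With PHx regions shrunk about their midpoints to the sham median width, Sparc, Bgn and Cygb were no longer marked at the start and the other 4 still were.

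**Figure D3:**
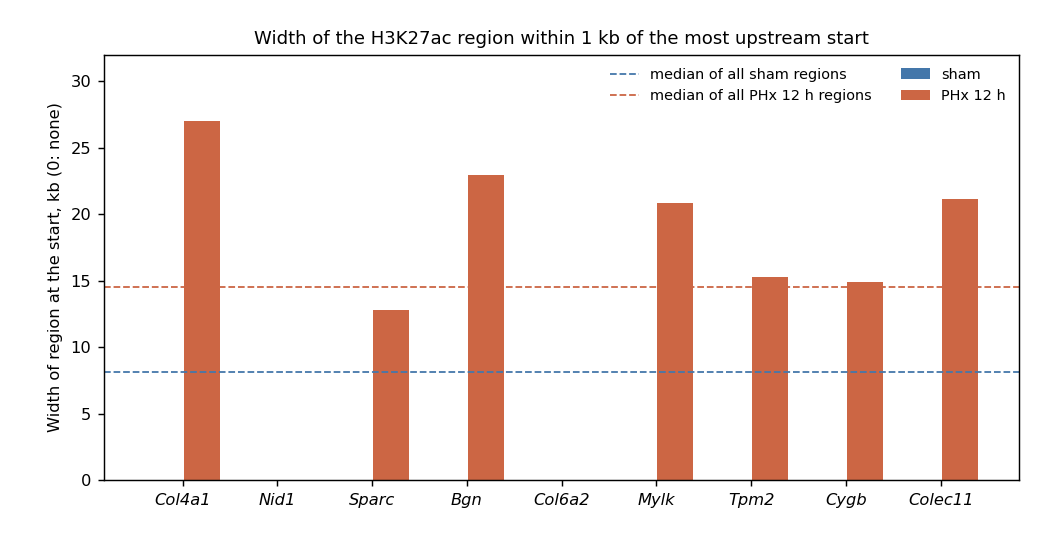
Width in kb of the region within 1 kb of the most upstream start in the sham and PHx 12 h lists, one value per list and no error; dashed lines are the medians of all regions of each list, and no bar means no region. All 7 bars are PHx bars, from 12785 bp for Sparc to 26984 bp for Col4a1, and no sham bar is present.

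At 6 of the 7, all but Colec11, the PHx region overlapped no sham region, and 69.4% of the 1091 protein-coding genes marked in PHx only were like them. At 3 of the 7, at least 1 sham library had no unjoined peak in the stretch that holds the start, against 55.4% of the 1084 such genes with a stretch to count. It was library 1, without any at 36.6% of such genes, at Sparc and library 2, without any at 29% of such genes, at Mylk and Cygb. None of the 7 lay in a stretch without unjoined peaks of either sham library, where 10.2% of such genes did. At no member can both sham libraries therefore be said to lack a peak at the start.

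Distal regions, over 3 kb from every listed start, numbered 9 in sham and 5 after PHx within 100 kb of the members' starts, and Mylk held 5 and 2 of them. In sham 4 of 9 had no overlap in the PHx list, at Nid1 (the one nearest to Lyst), Col6a2, Mylk and Tpm2, against 18.6% of all 3738 distal sham regions. After PHx 3 of 5 had none in sham, at Col4a1, Nid1 and Mylk, against 37.6% of all 2505. The members were chosen in part on such distal regions, so nothing is read from the shares of distal regions here. At Col6a2, Mylk and Tpm2 the sham-only region lay in a PHx stretch with 1 unjoined peak of library 1 and none of library 2. Of all 694 sham-only distal regions with a stretch to count, 13.7% had unjoined peaks of library 1 and none of library 2. At the sham-only region near Nid1 PHx library 1 had none and library 2 had 2. Library 1 had none at 65.1% of all such regions and library 2 at 33.9%. Of the 3 PHx-only distal regions, only that of Nid1 lay in a stretch with none of a sham library, library 1, which had none at 29.5% of all such regions, while library 2 had none at 27.3% and library 2 alone at 21.1%. Required to share 50% of both lengths, 8 of 9 sham and 4 of 5 PHx distal regions had no partner, against 71.1% and 61.4% of all distal regions. Of the 27 regions of each list near the members, 21 in sham and 21 after PHx were made of exactly 1 peak of each library.

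Covered length counts bases in listed regions, whichever gene they are assigned to. Within 100 kb of the start it was higher after PHx at 8 of 9 members, against 88.1% of all protein-coding genes. With the PHx regions shrunk in the same way it was higher at 5 of 9. No share over all genes is given for that setting, so nothing is read from the 5. The members' median difference, PHx minus sham, was 22983 bp (quartiles 11370 and 31375 bp), and that of all genes 16429 bp (quartiles 5880 and 29905 bp). Mylk, Cygb and Tpm2 had differences of 32298, 31375 and 31302 bp, and Nid1 had 3936 bp. Within 10 kb of the start 7 of 9 were higher after PHx, against 76.2% of all genes, with medians of 0 bp in the sham list and 13334 bp in the PHx list for the members and 7368 and 12095 bp for all genes. These 7 were the members marked in PHx only at the start. Their higher length within 10 kb is tied to how the members were chosen, so nothing is read from it. The length within 100 kb includes the same regions.

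**Figure D4:**
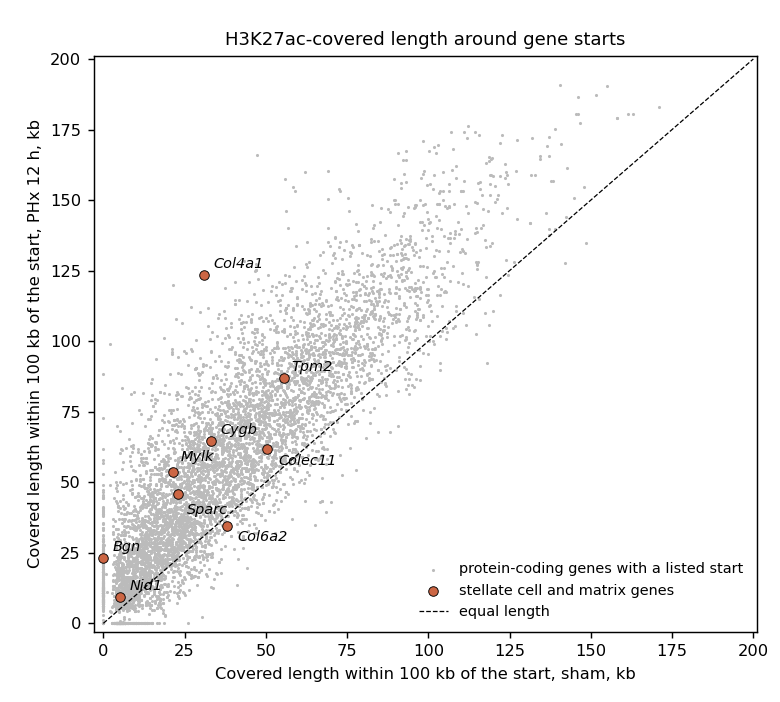
Length in kb covered by listed regions within 100 kb of the most upstream start, sham on the horizontal and PHx 12 h on the vertical axis, for the 9 genes (large points) and all 7090 protein-coding genes with a listed start (small points); the dashed line is equal length. Col4a1 stands far above the line with 31006 and 123274 bp, Col6a2 lies just below it, and the other members lie within the cloud.

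A wider set of genes of these roles was followed in 7 lists of matrix, contractile, stellate cell and matrix receptor genes, 140 genes in all, of which 67 have a listed start. Without the members 58 remained, with 39 of 58 found in both lists, beside 66% of all genes, 12 (20.7%) in PHx only and 1 (1.72%), Lamb2, in sham only, beside 15.4% and 9.79% of all genes in the latter pair. With 3 kb either side of the start, 9 were in PHx only and 1 in sham only, beside 14.3% and 9.69% of all genes. Sham regions lay 1356 bp from the start of Itgav, 1949 bp from Tnxb, 2358 bp from Itga1 and 2970 bp from Col5a3, outside the 1 kb limit. With PHx regions shrunk to the sham median width the order turned, to 16 in sham only and 7 in PHx only. The 6 in neither at 1 kb without shrinking were Col12a1, Fbln2, Mfap2, Timp2, Myh11 and Vipr1. Among basement membrane genes Nid2, encoding nidogen 2, was in PHx only with 31860 bp, the nearest sham region being 326780 bp away. Lamb2, of the laminin beta 2 chain, was in sham only with 21460 bp, though a PHx region came within 3247 bp of its start. In all 5 basement membrane genes were in both. The widest after PHx were those of Hspg2 (perlecan), with 5190 bp in the sham list and 61776 bp in the PHx list, Col18a1, with 46810 and 51952 bp, and Agrn (agrin), with 11642 and 22713 bp.

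Of the collagens outside the basement membrane, Col5a3 (44306 bp) and Col16a1 (13739 bp) were in PHx only and Col27a1 (26120 and 51619 bp) and Col14a1 (16584 and 15353 bp) in both. Tnxb, of tenascin X, was the single matrix glycoprotein gene beside Bgn in PHx only (37080 bp), in a region that also held the starts of Atf6b and Ppt2. Emilin1 (31994 and 47239 bp), Eln, of elastin (9245 and 27555 bp), and Ecm1 (5797 and 16715 bp) were in both. Among genes of matrix processing, Plod1, a collagen lysyl hydroxylase (25016 bp), Timp3, a metalloproteinase inhibitor (22991 bp), and Serpinh1, the collagen chaperone HSP47 (9238 bp), were in PHx only, and 9 were in both, led by Tgm2 (52454 and 80418 bp), Bmp1 (36292 and 42665 bp) and Mmp15 (14992 and 36013 bp).

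Of the contractile genes Cald1, of caldesmon (17212 bp), and Flna, of filamin A on the X chromosome (12665 bp), were in PHx only beside Mylk and Tpm2. The other tropomyosin genes were in both, Tpm1 with 11020 and 11979 bp, Tpm3 with 8920 and 20465 bp and Tpm4 with 6537 and 22309 bp. The widest in both were at Actn4 (54107 and 101369 bp), Actn1 (4006 and 54946 bp) and Mrtfb (21144 and 41958 bp). Of the stellate cell markers, Bambi, a TGF-beta pseudoreceptor (12390 bp), was in PHx only beside Cygb and Colec11. Angptl6 (19447 and 20588 bp), Ecm1 and Gata6 (10611 and 15664 bp) were in both, and Vipr1 was in neither. Of the 22 markers 14, among them Lrat, Reln, Hand2, Pdgfrb and Des, were assigned no region in either list. They thus have no listed start and are left out of the shares. Whether a region assigned to another gene reached their starts was not determined. The label of the 9 genes as stellate cell genes thus rests here on few markers. Of the matrix receptors Itga1 (27989 bp) and Itgav (9886 bp) were in PHx only, and 6 were in both, led by Sdc4 (48788 and 61953 bp), Sdc1 (23045 and 60250 bp) and Itga5 (24502 and 44887 bp).

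Markers of other liver cells were counted in the same way, beside 15.4% of all genes in PHx only and 66% in both. These lists too were chosen with earlier results of these data known, so nothing is read from their shares. Of the endothelial markers with a listed start 7 of 10 were in PHx only (Lyve1, Erg, Pecam1, Bmp2, Cdh5, Plvap and Clec4g), 1 in both (Tie1) and 2 in neither (Stab2 and Vwf). For Kupffer cell markers it was 1 of 4 in PHx only (Csf1r) and 3 in both, and for hepatocyte markers 1 of 8 (Cps1) and 7 in both. A sham region lay 1298 bp from the start of Lyve1 and another 1331 bp from that of Csf1r. The PHx-only state of Lyve1 and Csf1r thus depends on the limit of 1 kb. The single cholangiocyte marker with a start, Sox9, was in both, and the single marker of mesothelium and portal fibroblasts, Entpd2, in sham only (6649 bp). The part of other cell types in the members' values was not tested.

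**Figure D5:**
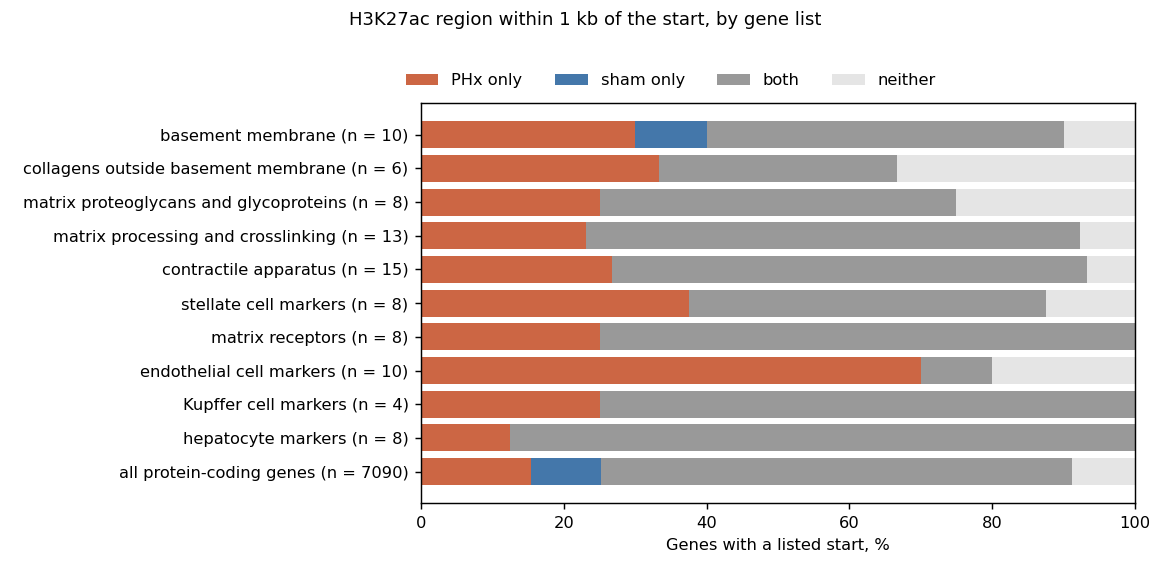
Share of the genes with a listed start that had a region within 1 kb of it in PHx only, sham only, both or neither, for the lists with at least 4 such genes and for all protein-coding genes; n is the number of genes, and the members are included in their lists. The PHx-only share is 70% for endothelial markers, 15.4% for all genes and 37.5% for stellate cell markers, of which Cygb and Colec11 were chosen for their state (16.7% without them). All lists, the endothelial one included, were chosen with earlier results of these data known.

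By covered share of 5 kb and of 100 kb either side of the start in both groups, 5 other genes were most like the median of the members. The members' median was 0% in sham and 83.3% after PHx within 5 kb, and 15.5% and 26.9% within 100 kb. Camk1d, a calcium-dependent kinase, was nearest, with 0%, 82.6%, 15.4% and 26.4% for the same measures, and Haus8, Dhx35 and Fam111a were also among them. Their marking in PHx only follows from this choice. The likeness covers 2 lists and 4 values per gene.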

How the data were processed

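Paired-end reads of 150 bp were taken from the 4 libraries, per the labels' protocols. Per the submitters' processing notes, the builds were GRCm39 and mm39 and the tools SEACR, Bowtie2, DiffBind and ChIPseeker, without roles or versions. Per the file headers, the authors deposited 1 table per group with each region's start, end and width in bp, the library peaks joined into it, its annotation, and the assigned gene with its coordinates. Thresholds of the peak caller are not stated there. Depth per library is unknown, so no interval on signal can be given.

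Starts were the gene start or end by strand, and the most upstream one listed in either table stood for the gene. From these tables, with Python 3.11.15 and pandas 2.3.3, promoter state (start ± 1 kb), width, overlap (at least 1 bp), distal regions (over 3 kb from any listed start) and covered length were computed, and the code was tested on simulated lists. A gene is listed only where a region was assigned to it, so genes without one were left out. Biotypes, gene order and promoter sequences came from mouse RefSeq on GRCm38.p6, with 8 of the 9 members matched to a promoter and 264 of 10925 gene names unmatched. The members and gene lists were chosen with earlier results of these data known. The genes named are all members, from each list those marked in a single group and, of those marked in both, at most 3 with the widest PHx region, genes whose start lies in a member's region, and the 5 most alike. The other tropomyosin genes and genes of regions near a member were named after their values were seen. Some genes that this rule names are not reported here.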

Additional observations from a re-analysis of the deposited data

How the results depend on the processing

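No paired analysis was possible because each group has 1 joined list and no value per library, and for the same reason no library could be left out. Of the 9 members, 6 or 7 stayed marked in PHx only with the start base itself, with 3 kb either side of the start, without regions below the lower width quartile of each list, by any listed start, or by the authors' own promoter assignment. The last pair of settings put 1 member, Mylk, in both groups. With PHx regions shrunk about their midpoints to the sham median width, 4 members (Col4a1, Mylk, Tpm2 and Colec11) were in PHx only and 5 in neither. This setting drops starts near the edge of a region by its construction, as at Sparc, Bgn and Cygb, and the share of all genes in PHx only was then 10.9%. It also left 5 members with more covered length within 100 kb after PHx, and of the 58 other genes of the lists 7 in PHx only and 16 in sham only, so that the order turned, as it did over all genes, with 25.1% in sham only. Where the stretch of the other list had to be free of unjoined peaks, 0 members stayed in PHx only. Of the 1084 protein-coding genes in PHx only with a stretch to count, 10.2% did. This setting leaves the sham state of the 7 undecided and does not remove their PHx regions. Sham-only distal regions near the members numbered 8 with a reciprocal overlap of 50% and 2 when over 10 kb from the member's start, and PHx-only ones numbered 1 when only regions assigned to the member counted.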

Other observations

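Among genes of the same roles that were marked in both groups, the ratio of promoter region width, PHx over sham, ranged widely. It was 13.7 at Actn1, of the actin crosslinker alpha-actinin 1, and 11.9 at Hspg2, of the basement membrane proteoglycan perlecan. It was 4.48 and 4.05 at P4ha2 and P4ha1, the catalytic subunits of collagen prolyl 4-hydroxylase, and 3.41 at Tpm4. Narrower regions after PHx were found at Dag1, of the laminin receptor dystroglycan (ratio 0.523), Col14a1 (0.926) and Tagln2 (0.966). The ratio of the medians of the whole lists was 1.78. These genes were picked from the lists after their values were seen, and the values have no replicate error.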
